A study of Homo sapiens with 8 samples.

Results

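The interferon response genes are a list of 43 gene symbols known as targets, sensors and transcription factors of the interferon pathway. Of these, 42 genes had a transcript cluster in the table, and each was represented by its cluster with the highest mean over the 8 arrays. Array values thus entered the choice between several clusters of a gene. The list itself was chosen with earlier results of these data known. IFITM2 and IFITM3 share a cluster, so counts below run over 41 clusters, out of 17881 measured in all. STAT2 was not analysed here. A further 5 clusters carry a member's symbol beside that of another gene (USP18 with USP41P, EIF2AK2 with ARL14EP, BST2 with PLVAP, TRIM22 with TRIM5, GBP1 with GBP3), and their signal cannot be assigned to either gene alone.

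Interferons are secreted proteins that cells release on sensing viral or displaced nucleic acid. Type I and type III interferons bind their receptors and act through the kinases JAK1 and TYK2 on transcription factors that include STAT2 and IRF9, which bind the interferon-stimulated response element in the promoters of their target genes. The products of these genes degrade viral RNA, block viral entry or translation, and sense further nucleic acid. Glucocorticoids, which act through the glucocorticoid receptor, are known to dampen inflammatory and interferon signalling in many cells.

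RNA came from cells labelled RS4;11, which is an MLL-rearranged leukemia line of B-cell precursors. The 4 groups had 2 Affymetrix exon arrays each: BTG1 shRNA with prednisolone, BTG1 shRNA with vehicle, control shRNA vector with prednisolone and control shRNA vector with vehicle, all after 8 h. BTG1 is an antiproliferative protein of the BTG/TOB family, and prednisolone is a synthetic glucocorticoid. The labels name no added interferon. The labels give no prednisolone dose, and say neither whether a line was a clone or a pool nor whether both arrays of a group stem from different cultures. The spread that each p-value rests on may thus be technical.

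The arrays labelled BTG1 shRNA differed from the control arrays in lineage markers as well as in shRNA. Of 16 T-lineage markers 13 were higher on them under each treatment, with a mean level of 7.96 to 8.15 on the BTG1 shRNA arrays against 4.27 to 4.98 on the control arrays. Of 15 B-lineage markers measured, 14 were lower under vehicle and 13 under prednisolone, with a mean level of 3.99 to 4.29 on the BTG1 shRNA arrays against 7.79 to 8.34 on the control arrays. Markers of the B lineage, to which RS4;11 belongs, were therefore low on the arrays labelled BTG1 shRNA. In every contrast between the shRNAs, the shRNA and this difference in lineage cannot be told apart. A level is called dim where both arrays of a group lay below the array's median over all clusters. Markers of natural killer cells (7 of 8), myeloid cells (8 of 9) and plasmacytoid dendritic cells (4 of 5) were dim in all 4 groups. BTG1 itself, on a cluster shared with LINC01619, was lower on the BTG1 shRNA arrays than on the control arrays, with a log2 difference of -2.64 (SE 0.20, adjusted p = 0.000107) under prednisolone and -2.06 (SE 0.20, adjusted p = 0.000388) under vehicle. The glucocorticoid receptor gene NR3C1 was lower there too, at -3.51 (SE 0.28, adjusted p = 0.000133) under prednisolone and -2.53 (SE 0.28, adjusted p = 0.000733) under vehicle.

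Promoter sequence was available for 33 of the 43 genes in RefSeq (GRCh38.p14), from 250 bases before to 50 bases after each start. The core of the interferon-stimulated response element was searched as GAAA, any 2 bases and GAAA on both strands. It was present for 23 of these 33 genes (69.7%), against 1195 of 27305 genes with such a sequence (4.38%). A match is a description of the letters and not evidence of binding in these cells. The sequences below are 110 bases each, read 5′ to 3′ on the gene's own strand, with each match in capitals (as TTTC, 2 bases and TTTC where it lies on the other strand). IFITM1 (chr11:313939-314048, plus strand) and IFITM3 (chr11:320852-320961, minus strand) are shown because the cluster of IFITM1 and the cluster that IFITM3 shares with its neighbour IFITM2 went in opposite directions. IFI6 (chr1:27672253-27672362, minus strand) and IFIT3 (chr10:89327827-89327936, plus strand) are shown as a gene that was higher and a gene that was lower on the arrays labelled BTG1 shRNA. ISG20 (chr15:88638906-88639015, plus strand) and DTX3L (chr3:122564237-122564346, plus strand), which starts beside PARP9 on the opposite strand, are shown for the prednisolone comparison. DTX3L did not pass the test in that comparison on the control arrays, while PARP9 did. PARP9 has windows for 2 starts, with 0 matches in the first window and 1 in both together.
IFITM1: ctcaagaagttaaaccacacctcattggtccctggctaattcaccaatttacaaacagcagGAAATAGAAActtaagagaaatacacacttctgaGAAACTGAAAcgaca
IFITM3: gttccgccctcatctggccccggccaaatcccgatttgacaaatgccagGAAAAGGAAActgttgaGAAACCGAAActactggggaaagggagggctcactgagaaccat
IFI6: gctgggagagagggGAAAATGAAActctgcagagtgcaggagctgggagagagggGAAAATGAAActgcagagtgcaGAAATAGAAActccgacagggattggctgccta
IFIT3: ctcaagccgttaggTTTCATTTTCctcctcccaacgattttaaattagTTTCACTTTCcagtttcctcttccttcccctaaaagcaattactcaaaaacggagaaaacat
ISG20: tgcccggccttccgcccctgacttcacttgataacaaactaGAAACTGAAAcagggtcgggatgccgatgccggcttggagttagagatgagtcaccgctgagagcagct
DTX3L: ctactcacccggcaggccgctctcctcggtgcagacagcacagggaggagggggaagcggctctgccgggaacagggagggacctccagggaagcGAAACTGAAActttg

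IFITM1, IFITM3 and IFIT3 each hold 2 matches in the stretch shown, IFI6 holds 3, and ISG20 and DTX3L hold 1 each. Genes of both directions held the match, and with 4 genes higher the comparison cannot tell whether it separates them. The 10 genes without a promoter sequence, OAS2, IRF2 and TRIM22 among them, are not in these counts. Among genes lower on the BTG1 shRNA arrays 11 of 15 held it, among genes higher there 3 of 4, among genes in neither class 9 of 13, and STAT2 did not hold it. The palindrome of the glucocorticoid response element, searched as GNACA, any 3 bases and TGTNC after the data were seen, was present for 0 of 33 genes, against 131 of 27305 genes (0.48%). Its absence says only that these letters are not in these windows.

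Levels of the 41 clusters covered most of the range of the arrays, and many were low. The median level of the members under prednisolone was 5.14 and 5.11 per array with BTG1 shRNA, against 5.82 and 5.42 with control shRNA. Under vehicle it was 4.82 and 4.84 per array with BTG1 shRNA, against 5.67 and 5.66 with control shRNA. The groups did not overlap at either treatment. Dim clusters numbered 22 and 23 on the BTG1 shRNA arrays with prednisolone and vehicle, against 16 and 15 on the control arrays with prednisolone and vehicle. Of the 41 clusters, 14 were dim in all 4 groups and 16 in none. The bulk level cannot tell fewer expressing cells from less RNA per cell.

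**Figure D1:**
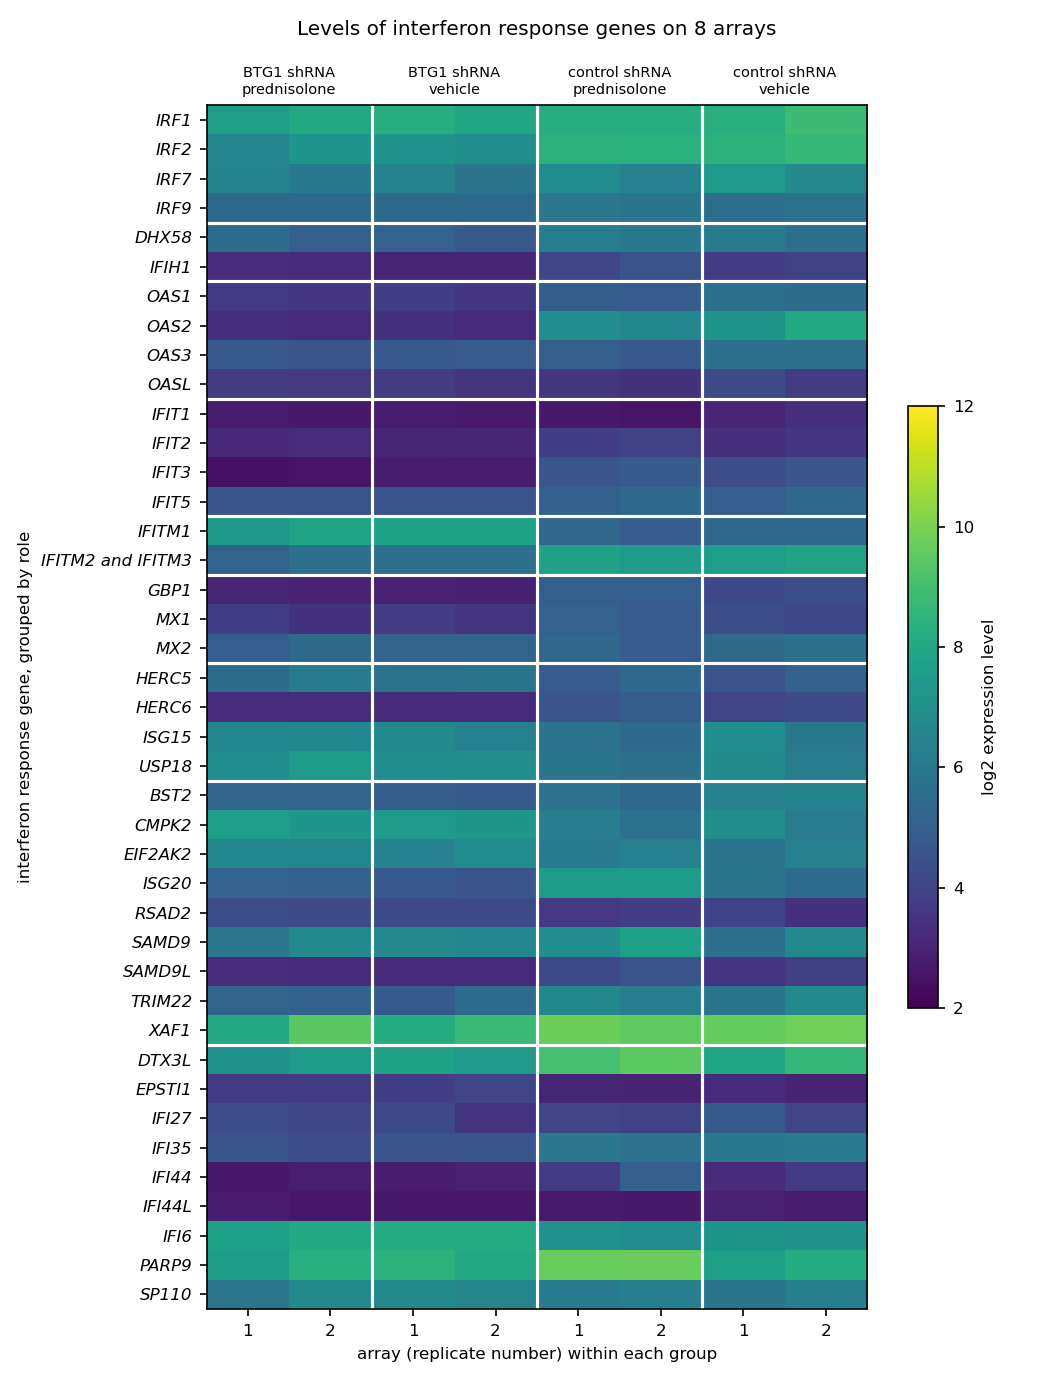
Log2 expression level of the interferon response genes on each of the 8 arrays, with arrays in columns by group and genes in rows by role; white lines separate the groups and the roles. XAF1 and IRF1 are bright on all arrays, OAS2, IFIT3 and GBP1 are darker on the 4 BTG1 shRNA arrays, and IFITM1 is brighter there.

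On the arrays labelled BTG1 shRNA, more of these genes were lower than higher. Under vehicle 12 of 41 clusters were lower (29.3%) and 3 were higher (7.32%) than on the control arrays at an adjusted p below 0.05, against 6.21% lower and 8.46% higher among all clusters. Under prednisolone 17 were lower (41.5%) and 5 higher (12.2%), against 7.51% lower and 10.0% higher among all clusters. The median log2 difference was -0.63 under prednisolone, where that of all clusters was 0.04, and -0.57 under vehicle, where that of all clusters was -0.15. These calls come from limma on all clusters with Benjamini-Hochberg adjustment, and every adjusted p below is from that model. The contrasts under vehicle and prednisolone share no arrays, but they share the spread of each cluster, estimated over all 8 arrays. Both also hold the difference in lineage markers, so calls that recur in both are not independent. Arrays did not overlap for 9 clusters above and 27 below under vehicle (24.5% and 34.3% of all clusters), and for 11 above and 25 below under prednisolone (28.4% and 21.5% of all clusters). In both contrasts 13 clusters were called, all in the same direction, 10 lower and 3 higher. A further 2 were called under vehicle alone, 9 under prednisolone alone and 17 in no contrast. These overlaps were not counted among all clusters, so they are only a description of the members. A call under 1 treatment alone does not show that the treatments differ, and the test of that difference called 0 of 41 clusters, with 7 at an unadjusted p below 0.05 by limma and 0.134% of all clusters called. Of the 15 called under vehicle 5 were dim in both groups, and of the 22 called under prednisolone 10 were. The counts changed when single arrays were left out. How the share of all clusters changed then is not given here, so the change is not shown to be particular to these genes. Under vehicle 9 and 8 clusters were called without the first and the second BTG1 shRNA vehicle array, and under prednisolone 13 (12 lower and 1 higher) with the second control prednisolone array left out.

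**Figure D2:**
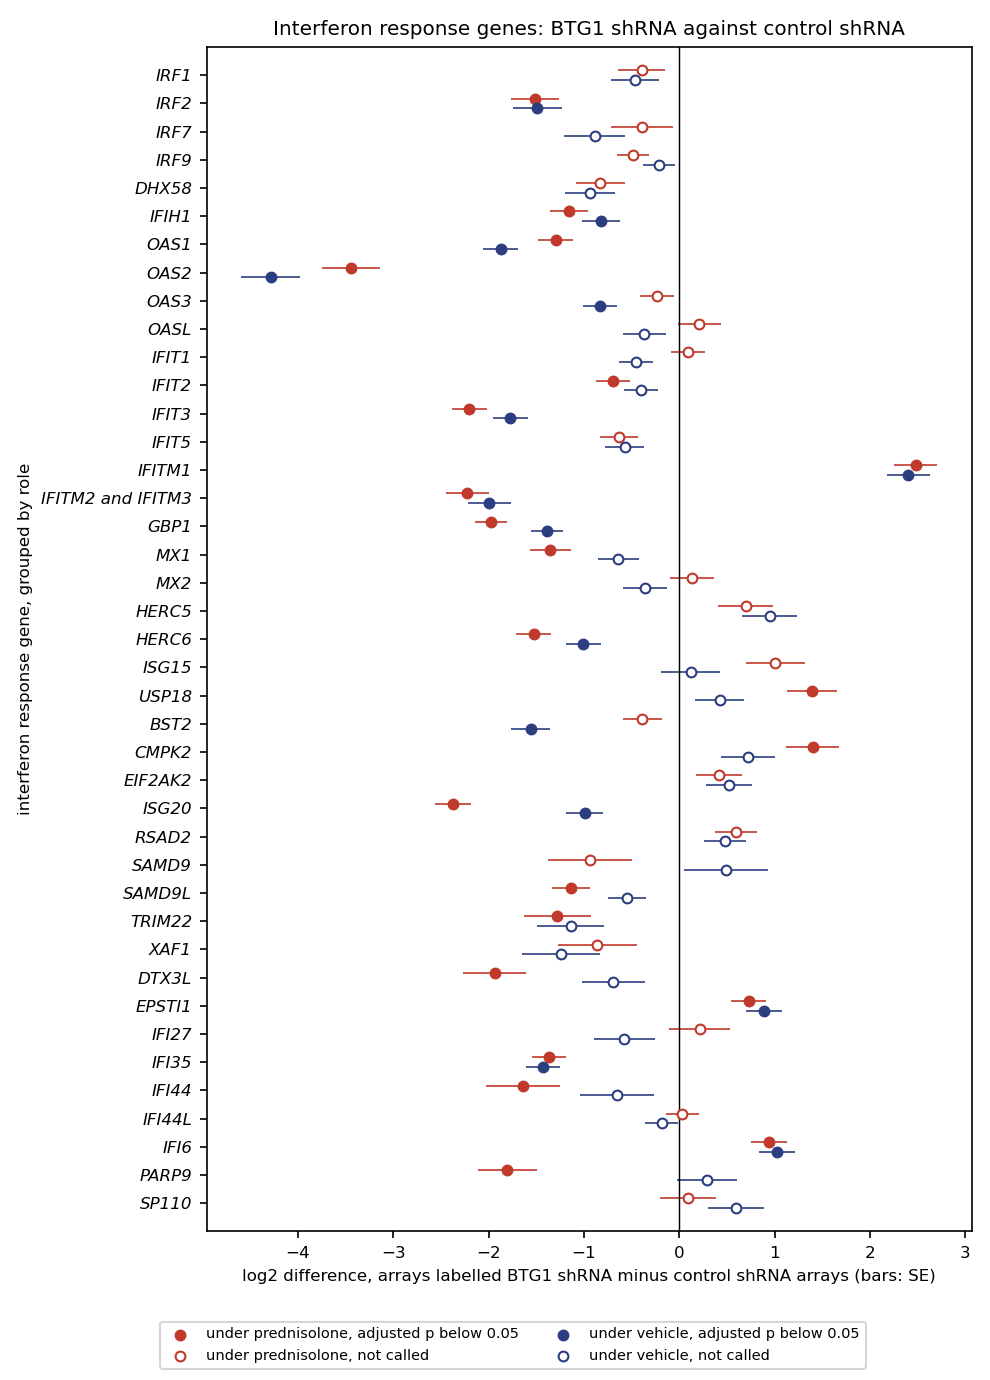
Log2 difference of each interferon response gene between the arrays labelled BTG1 shRNA and the control shRNA arrays, under prednisolone (red) and vehicle (blue), with the standard error as bars and filled points where the adjusted p was below 0.05. OAS2 lies farthest to the left and IFITM1 farthest to the right under both treatments.

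Of the transcription factors that carry the interferon signal, IRF2 alone was called among the 4 measured. IRF2 is known mainly as a repressor that competes with IRF1 for the same DNA element. IRF2 had 6.54 and 7.25 on the BTG1 shRNA prednisolone arrays against 8.42 and 8.39 on the control prednisolone arrays, and 7.15 and 6.96 on the BTG1 shRNA vehicle arrays against 8.41 and 8.68 on the control vehicle arrays. The groups did not overlap under either treatment, and the log2 difference was -1.51 (SE 0.26, adjusted p = 0.00529) under prednisolone and -1.49 (SE 0.26, adjusted p = 0.00686) under vehicle. The vehicle call was lost without the second BTG1 shRNA vehicle array (adjusted p = 0.0632). IRF1, the activator, had 7.59 and 8.07 on the BTG1 shRNA prednisolone arrays against 8.22 and 8.23 on the control prednisolone arrays, and 8.23 and 8.00 on the BTG1 shRNA vehicle arrays against 8.31 and 8.84 on the control vehicle arrays. Its difference was -0.40 (SE 0.25, adjusted p = 0.417) under prednisolone and -0.46 (SE 0.25, adjusted p = 0.261) under vehicle. IRF9, the DNA-binding partner of STAT2, had 5.41 and 5.41 on the BTG1 shRNA prednisolone arrays against 5.96 and 5.83 on the control prednisolone arrays, and 5.45 and 5.41 on the BTG1 shRNA vehicle arrays against 5.57 and 5.72 on the control vehicle arrays. All 4 BTG1 shRNA arrays lay below all 4 control arrays for IRF9, by a small margin that did not pass the test. The difference was -0.49 (SE 0.17, adjusted p = 0.0922) under prednisolone and -0.21 (SE 0.17, adjusted p = 0.392) under vehicle, and it passed under prednisolone with quantile normalization (adjusted p = 0.0379). IRF7, which amplifies interferon production, had 6.49 and 6.04 on the BTG1 shRNA prednisolone arrays against 6.86 and 6.45 on the control prednisolone arrays, and 6.48 and 5.84 on the BTG1 shRNA vehicle arrays against 7.38 and 6.73 on the control vehicle arrays. Its arrays overlapped under prednisolone, and its difference was -0.39 (SE 0.32, adjusted p = 0.602) under prednisolone and -0.89 (SE 0.32, adjusted p = 0.122) under vehicle.

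Of the 2 cytosolic RNA sensors, IFIH1 was lower on the BTG1 shRNA arrays under both treatments. IFIH1 encodes MDA5, which senses long double-stranded RNA. IFIH1 had 3.27 and 3.22 on the BTG1 shRNA prednisolone arrays against 4.18 and 4.61 on the control prednisolone arrays, and 3.05 and 3.08 on the BTG1 shRNA vehicle arrays against 3.79 and 3.98 on the control vehicle arrays. It was dim in all 4 groups. Its difference was -1.15 (SE 0.20, adjusted p = 0.00589) under prednisolone and -0.82 (SE 0.20, adjusted p = 0.0306) under vehicle. The vehicle call was lost when arrays were quantile normalized (adjusted p = 0.216) or centred (adjusted p = 0.0788). A fit of only the arrays compared lost the vehicle call too (adjusted p = 0.083). It was also lost without either BTG1 shRNA vehicle array (adjusted p = 0.165 and 0.163) or either BTG1 shRNA prednisolone array (adjusted p = 0.0583), and the prednisolone call with the second control prednisolone array left out (adjusted p = 0.0535). DHX58 encodes LGP2, a regulator of the other RNA sensors. Its levels were lower on every BTG1 shRNA array than on the control arrays of the same treatment, but the difference missed the threshold at -0.83 (SE 0.26, adjusted p = 0.0711) under prednisolone and -0.93 (SE 0.26, adjusted p = 0.0528) under vehicle. DHX58 passed in both contrasts when arrays were quantile normalized (adjusted p = 0.0388 under prednisolone and 0.036 under vehicle) or centred (adjusted p = 0.0182 and 0.0266).

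The 2-5A synthetases make the second messenger that activates RNase L, and they are neighbours on chromosome 12 with no protein-coding gene between OAS1, OAS3 and OAS2 in RefSeq (GRCh38.p14), which gives all neighbours named here. OAS2 had the largest log2 difference of the 41 clusters in both contrasts. OAS2 had 3.39 and 3.19 on the BTG1 shRNA prednisolone arrays against 6.89 and 6.58 on the control prednisolone arrays, and 3.48 and 3.19 on the BTG1 shRNA vehicle arrays against 7.17 and 8.07 on the control vehicle arrays. The gap between the groups was far wider than that between replicates, at -3.45 (SE 0.31, adjusted p = 0.000232) under prednisolone and -4.29 (SE 0.31, adjusted p = 0.0001) under vehicle, and OAS2 was dim on the BTG1 shRNA arrays. OAS1 had 3.72 and 3.57 on the BTG1 shRNA prednisolone arrays against 4.96 and 4.92 on the control prednisolone arrays, and 3.86 and 3.59 on the BTG1 shRNA vehicle arrays against 5.67 and 5.52 on the control vehicle arrays. OAS1 was lower, at -1.30 (SE 0.18, adjusted p = 0.00216) under prednisolone and -1.87 (SE 0.18, adjusted p = 0.000397) under vehicle. OAS1 was dim in all groups but the control vehicle one. OAS3 had 4.76 and 4.60 on the BTG1 shRNA prednisolone arrays against 5.03 and 4.79 on the control prednisolone arrays, and 4.75 and 4.88 on the BTG1 shRNA vehicle arrays against 5.67 and 5.62 on the control vehicle arrays. OAS3 was called under vehicle only, at -0.83 (SE 0.18, adjusted p = 0.0179), against -0.23 (SE 0.18, adjusted p = 0.541) under prednisolone. The vehicle call was lost with a trended robust variance (adjusted p = 0.0562) and in a fit of only the arrays compared (adjusted p = 0.0771). It was also lost without the first or the second BTG1 shRNA vehicle array, where the differences were -0.77 and -0.89. OASL, a relative without synthetase activity, was dim in all groups and called in neither contrast.

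The IFIT proteins bind foreign RNA and block its translation. IFIT3 was the clearest of the 4. IFIT3 had 2.49 and 2.55 on the BTG1 shRNA prednisolone arrays against 4.62 and 4.82 on the control prednisolone arrays, and 2.77 and 2.76 on the BTG1 shRNA vehicle arrays against 4.40 and 4.68 on the control vehicle arrays. All BTG1 shRNA arrays lay more than 1 log2 unit below all control arrays, and the differences were -2.20 (SE 0.18, adjusted p = 0.000165) under prednisolone and -1.77 (SE 0.18, adjusted p = 0.000537) under vehicle. IFIT3 was dim in all 4 groups. IFIT2, the gene next to IFIT3 on chromosome 10, had 3.13 and 3.27 on the BTG1 shRNA prednisolone arrays against 3.82 and 3.96 on the control prednisolone arrays, and 3.02 and 3.07 on the BTG1 shRNA vehicle arrays against 3.33 and 3.57 on the control vehicle arrays. IFIT2 was called under prednisolone only, at -0.69 (SE 0.18, adjusted p = 0.0338), against -0.40 (SE 0.18, adjusted p = 0.189) under vehicle. That call was lost on leaving out any array but the 2 control vehicle ones. It was also lost with all arrays when they were quantile normalized (adjusted p = 0.0843). IFIT1 had 2.77 and 2.67 on the BTG1 shRNA prednisolone arrays against 2.69 and 2.58 on the control prednisolone arrays, and 2.78 and 2.71 on the BTG1 shRNA vehicle arrays against 3.07 and 3.33 on the control vehicle arrays. IFIT1 sat near the bottom of the range on every array, and its difference was 0.09 (SE 0.18, adjusted p = 0.954) under prednisolone and -0.45 (SE 0.18, adjusted p = 0.145) under vehicle. IFIT5, next to IFIT1, was not called, at -0.63 (SE 0.20, adjusted p = 0.0773) under prednisolone and -0.57 (SE 0.20, adjusted p = 0.116) under vehicle.

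The IFITM proteins sit in membranes and hinder the entry of enveloped viruses. IFITM2, IFITM1 and IFITM3 lie side by side on chromosome 11, and their clusters went in opposite directions. IFITM1 had 7.34 and 7.85 on the BTG1 shRNA prednisolone arrays against 5.30 and 4.93 on the control prednisolone arrays, and 7.76 and 7.80 on the BTG1 shRNA vehicle arrays against 5.37 and 5.39 on the control vehicle arrays. It was higher on every BTG1 shRNA array than on any control array, by 2.48 (SE 0.23, adjusted p = 0.000267) under prednisolone and 2.40 (SE 0.23, adjusted p = 0.000353) under vehicle, the largest rise among the members in both contrasts. The cluster shared by IFITM2 and IFITM3 had 5.16 and 5.68 on the BTG1 shRNA prednisolone arrays against 7.76 and 7.53 on the control prednisolone arrays, and 5.69 and 5.71 on the BTG1 shRNA vehicle arrays against 7.56 and 7.82 on the control vehicle arrays. It was lower, at -2.22 (SE 0.22, adjusted p = 0.000443) under prednisolone and -1.99 (SE 0.22, adjusted p = 0.000872) under vehicle. Neither cluster was dim in any group. A further cluster with the same 2 symbols was called in neither contrast between the shRNAs, and its levels of 2.61 to 3.83 lay far below. The sequences of IFITM1 and IFITM3 printed above each hold 2 matches to the response element core, so this count does not distinguish them.

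**Figure D3:**
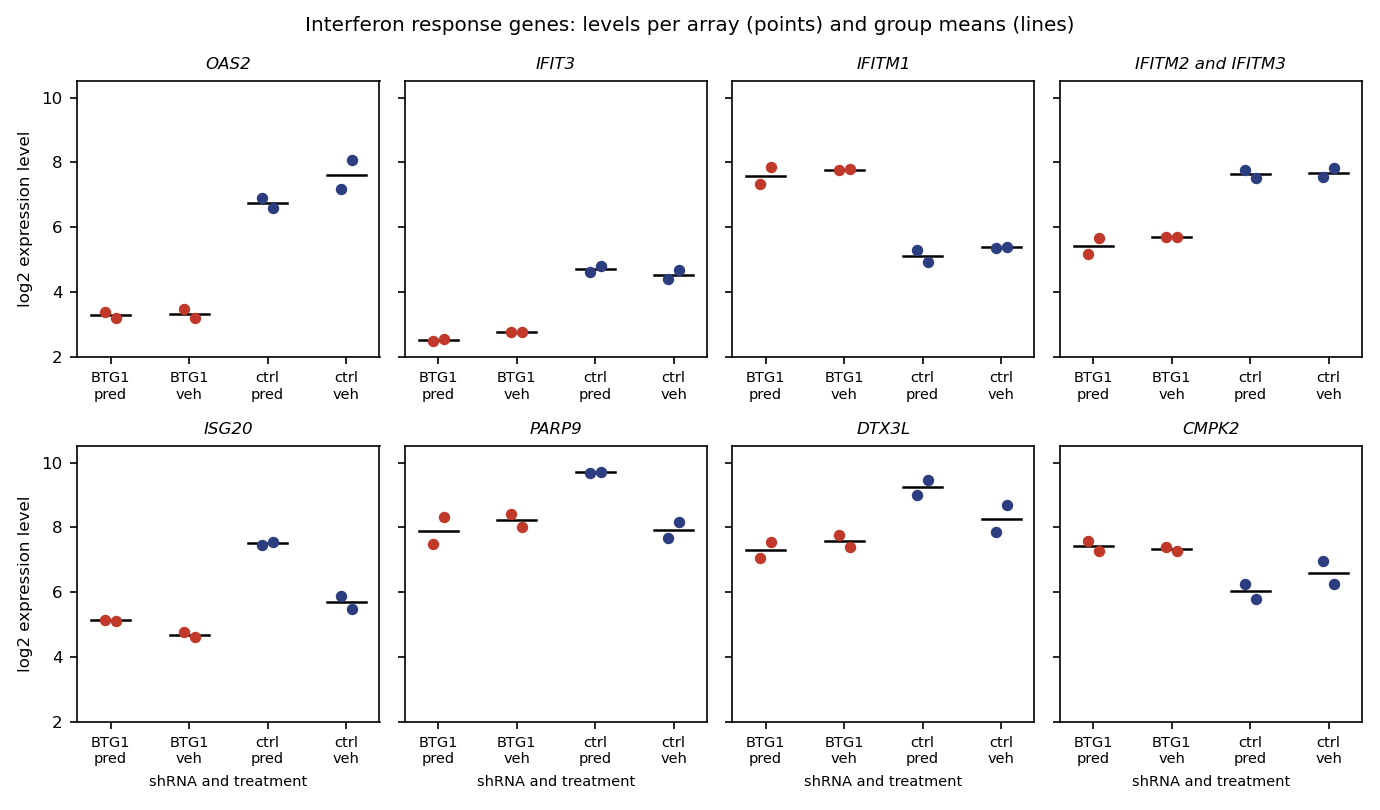
Log2 expression level of 8 members on each array (points, red for BTG1 shRNA and blue for control shRNA) with the mean of the 2 arrays of each group (lines); pred is prednisolone, veh is vehicle and ctrl is control. IFITM1 is higher and IFITM2 with IFITM3 lower on the BTG1 shRNA arrays, and for ISG20 and PARP9 the control prednisolone arrays stand above the other 3 groups.

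Among the interferon-induced GTPases, which trap viral particles or attack the vacuoles of microbes, GBP1 was the clearest. The cluster of GBP1 and GBP3 had 3.05 and 2.95 on the BTG1 shRNA prednisolone arrays against 4.98 and 4.98 on the control prednisolone arrays, and 2.92 and 2.86 on the BTG1 shRNA vehicle arrays against 4.17 and 4.38 on the control vehicle arrays. It was dim in all groups and lower under both treatments, at -1.98 (SE 0.17, adjusted p = 0.000195) under prednisolone and -1.39 (SE 0.17, adjusted p = 0.00126) under vehicle. MX1, which blocks influenza and other RNA viruses, had 3.86 and 3.47 on the BTG1 shRNA prednisolone arrays against 5.15 and 4.89 on the control prednisolone arrays, and 3.78 and 3.52 on the BTG1 shRNA vehicle arrays against 4.41 and 4.18 on the control vehicle arrays. MX1 was called under prednisolone at -1.35 (SE 0.22, adjusted p = 0.00425), while under vehicle it was at -0.64 (SE 0.22, adjusted p = 0.102), and it was dim in all groups. MX2, beside MX1 on chromosome 21, was not called, at 0.13 (SE 0.23, adjusted p = 0.933) under prednisolone and -0.36 (SE 0.23, adjusted p = 0.317) under vehicle.

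ISG15 is a ubiquitin-like protein that is attached to other proteins by UBA7, UBE2L6 and HERC5 and removed by USP18. Of the 4 clusters of this system 1 was higher and 1 lower under prednisolone, and 1 was lower under vehicle. ISG15 had 6.58 and 6.67 on the BTG1 shRNA prednisolone arrays against 5.82 and 5.42 on the control prednisolone arrays, and 6.74 and 6.40 on the BTG1 shRNA vehicle arrays against 6.88 and 6.00 on the control vehicle arrays. Under vehicle its groups overlapped. Its difference was 1.01 (SE 0.31, adjusted p = 0.0645) under prednisolone, where the groups did not overlap, and 0.12 (SE 0.31, adjusted p = 0.785) under vehicle. The cluster of USP18 and USP41P had 6.86 and 7.45 on the BTG1 shRNA prednisolone arrays against 5.84 and 5.68 on the control prednisolone arrays, and 6.86 and 6.96 on the BTG1 shRNA vehicle arrays against 6.75 and 6.23 on the control vehicle arrays. It was higher under prednisolone by 1.39 (SE 0.26, adjusted p = 0.00848), against 0.42 (SE 0.26, adjusted p = 0.304) under vehicle. The prednisolone call was lost without the second BTG1 shRNA prednisolone array (adjusted p = 0.0574) or the second control prednisolone array (adjusted p = 0.0655). HERC6, a relative of HERC5 that acts as the main ISG15 ligase in mouse, had 3.26 and 3.26 on the BTG1 shRNA prednisolone arrays against 4.65 and 4.93 on the control prednisolone arrays, and 3.19 and 3.21 on the BTG1 shRNA vehicle arrays against 4.11 and 4.31 on the control vehicle arrays. It was dim in all groups and lower, at -1.53 (SE 0.18, adjusted p = 0.000973) under prednisolone and -1.01 (SE 0.18, adjusted p = 0.00867) under vehicle, and the vehicle call was lost with quantile normalization (adjusted p = 0.107) and without the first or the second BTG1 shRNA vehicle array (adjusted p = 0.0713 and 0.0752). HERC5, its neighbour on chromosome 4, had positive differences that did not pass the test, 0.70 (SE 0.29, adjusted p = 0.165) under prednisolone and 0.95 (SE 0.29, adjusted p = 0.0708) under vehicle. UBA7, the activating enzyme and not among the 43 genes, was lower, at -3.40 (SE 0.19, adjusted p = 3.01e-05) under prednisolone and -3.56 (SE 0.19, adjusted p = 2.55e-05) under vehicle. UBE2L6, also not among them, was called in neither contrast. Its mean on the BTG1 shRNA arrays was 8.49 against 8.39 on the control arrays under prednisolone, and 8.43 against 8.85 under vehicle.

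Of the other effectors, the nuclease gene ISG20 was lower on the BTG1 shRNA arrays under both treatments. ISG20 had 5.14 and 5.11 on the BTG1 shRNA prednisolone arrays against 7.46 and 7.55 on the control prednisolone arrays, and 4.76 and 4.62 on the BTG1 shRNA vehicle arrays against 5.88 and 5.48 on the control vehicle arrays. The difference was -2.38 (SE 0.19, adjusted p = 0.000154) under prednisolone and -0.99 (SE 0.19, adjusted p = 0.0119) under vehicle. The vehicle call was lost without the first or the second BTG1 shRNA vehicle array, where the differences were -1.06 and -0.92. It was also lost in a fit of only the arrays compared (adjusted p = 0.0621). ISG20 was dim on the BTG1 shRNA arrays. BST2 encodes tetherin, which holds budding virions on the cell surface. The cluster of BST2 and PLVAP had 5.22 and 5.17 on the BTG1 shRNA prednisolone arrays against 5.83 and 5.34 on the control prednisolone arrays, and 4.96 and 4.84 on the BTG1 shRNA vehicle arrays against 6.41 and 6.50 on the control vehicle arrays. It was called under vehicle at -1.56 (SE 0.20, adjusted p = 0.00184) but not under prednisolone, at -0.39 (SE 0.20, adjusted p = 0.295). The cluster that carries BST2 alone was lower under both, at -1.98 (SE 0.20, adjusted p = 0.000424) under prednisolone and -2.39 (SE 0.20, adjusted p = 0.000205) under vehicle, so the missing call under prednisolone holds for the shared cluster only. The BST2-alone cluster was dim on the BTG1 shRNA arrays, so the size of its difference is uncertain.

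TRIM22 is an antiviral ubiquitin ligase. The cluster of TRIM22 and TRIM5 had 5.21 and 5.12 on the BTG1 shRNA prednisolone arrays against 6.66 and 6.23 on the control prednisolone arrays, and 4.82 and 5.49 on the BTG1 shRNA vehicle arrays against 5.84 and 6.75 on the control vehicle arrays. It was called under prednisolone at -1.28 (SE 0.35, adjusted p = 0.0439) and not under vehicle, at -1.14 (SE 0.35, adjusted p = 0.0743), and the prednisolone call was lost on leaving out any 1 of the 4 prednisolone arrays, with adjusted p-values up to 0.195, and with all arrays when they were quantile normalized (adjusted p = 0.0552) or centred (adjusted p = 0.0794). The cluster of TRIM22 alone had 2.88 and 2.65 on the BTG1 shRNA prednisolone arrays against 8.07 and 8.17 on the control prednisolone arrays, and 2.93 and 2.79 on the BTG1 shRNA vehicle arrays against 6.41 and 7.80 on the control vehicle arrays. Its difference was -5.35 (SE 0.40, adjusted p = 0.000105) under prednisolone and -4.24 (SE 0.40, adjusted p = 0.000351) under vehicle. It was dim on the BTG1 shRNA arrays, near the bottom of their range, so the size of the gap is uncertain.

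CMPK2, a mitochondrial nucleotide kinase, had 7.58 and 7.27 on the BTG1 shRNA prednisolone arrays against 6.26 and 5.79 on the control prednisolone arrays, and 7.40 and 7.26 on the BTG1 shRNA vehicle arrays against 6.95 and 6.26 on the control vehicle arrays. CMPK2 was higher under prednisolone by 1.40 (SE 0.28, adjusted p = 0.0121), against 0.72 (SE 0.28, adjusted p = 0.145) under vehicle. That call was lost with the second control prednisolone array left out (adjusted p = 0.0936) and without the first BTG1 shRNA prednisolone array (adjusted p = 0.0851). RSAD2, which lies beside CMPK2 on chromosome 2 and encodes the antiviral enzyme viperin, was dim in all groups and called in neither contrast. With quantile normalization RSAD2 passed under vehicle, at 0.74 (adjusted p = 0.0234). SAMD9L, a translation inhibitor, had 3.28 and 3.20 on the BTG1 shRNA prednisolone arrays against 4.19 and 4.56 on the control prednisolone arrays, and 3.18 and 3.19 on the BTG1 shRNA vehicle arrays against 3.58 and 3.88 on the control vehicle arrays. It was dim in all groups and called under prednisolone at -1.14 (SE 0.20, adjusted p = 0.00649), against -0.54 (SE 0.20, adjusted p = 0.125) under vehicle, and lost that call with the second control prednisolone array left out (adjusted p = 0.0615). SAMD9, XAF1 and the cluster of EIF2AK2 and ARL14EP were called in neither contrast. ARL14EP lies on chromosome 11 and EIF2AK2, the kinase PKR, on chromosome 2. The cluster of EIF2AK2 alone, at -1.83 (SE 0.61, adjusted p = 0.0857) under prednisolone and -0.42 (SE 0.61, adjusted p = 0.625) under vehicle, was not called either.

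The remaining induced genes had calls in both directions. IFI35 had 4.60 and 4.39 on the BTG1 shRNA prednisolone arrays against 5.98 and 5.75 on the control prednisolone arrays, and 4.61 and 4.67 on the BTG1 shRNA vehicle arrays against 6.02 and 6.12 on the control vehicle arrays. IFI35 was lower, at -1.37 (SE 0.18, adjusted p = 0.00163) under prednisolone and -1.43 (SE 0.18, adjusted p = 0.00149) under vehicle. Its groups did not overlap, and it was dim on the BTG1 shRNA arrays. IFI6, a mitochondrial and endoplasmic reticulum protein that counters cell death and flavivirus replication, had 7.74 and 8.09 on the BTG1 shRNA prednisolone arrays against 7.07 and 6.87 on the control prednisolone arrays, and 8.16 and 8.16 on the BTG1 shRNA vehicle arrays against 7.19 and 7.08 on the control vehicle arrays. IFI6 was higher by 0.94 (SE 0.19, adjusted p = 0.0125) under prednisolone and 1.02 (SE 0.19, adjusted p = 0.0103) under vehicle, and was not dim in any group. The prednisolone call was lost without the second array of either prednisolone group (adjusted p = 0.0947 for BTG1 shRNA and 0.104 for control), and the vehicle call without the first or the second BTG1 shRNA vehicle array (adjusted p = 0.0753 and 0.0843). EPSTI1 had 3.71 and 3.72 on the BTG1 shRNA prednisolone arrays against 3.04 and 2.94 on the control prednisolone arrays, and 3.85 and 4.10 on the BTG1 shRNA vehicle arrays against 3.22 and 2.95 on the control vehicle arrays. EPSTI1 was higher by 0.73 (SE 0.19, adjusted p = 0.0329) under prednisolone and 0.89 (SE 0.19, adjusted p = 0.0165) under vehicle, although it was dim in all groups. Its vehicle call was lost in a fit of only the arrays compared (adjusted p = 0.08), and also without the first or the second BTG1 shRNA vehicle array. Its prednisolone call was lost on leaving out any array but the 2 control vehicle ones.

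IFI44 was dim in all groups and had 2.70 and 2.83 on the BTG1 shRNA prednisolone arrays against 3.80 and 5.02 on the control prednisolone arrays, and 2.76 and 2.90 on the BTG1 shRNA vehicle arrays against 3.18 and 3.77 on the control vehicle arrays. It was called under prednisolone at -1.64 (SE 0.39, adjusted p = 0.0238), against -0.65 (SE 0.39, adjusted p = 0.294) under vehicle, and the prednisolone call was lost with the second control prednisolone array left out (adjusted p = 0.0955), the brightest of the 8, where the difference was -1.03. It was also lost without the first or the second BTG1 shRNA prednisolone array (adjusted p = 0.117 and 0.0873), and with all arrays when they were quantile normalized (adjusted p = 0.0685) or centred (adjusted p = 0.0546). IFI44L, beside it on chromosome 1, and IFI27 were dim in all groups and, like SP110, were called in no contrast. PARP9 and DTX3L, partners in a complex that modifies histones and DNA damage sites, start side by side on opposite strands of chromosome 3. DTX3L had 7.06 and 7.53 on the BTG1 shRNA prednisolone arrays against 9.0 and 9.47 on the control prednisolone arrays, and 7.78 and 7.38 on the BTG1 shRNA vehicle arrays against 7.86 and 8.68 on the control vehicle arrays. PARP9 had 7.47 and 8.31 on the BTG1 shRNA prednisolone arrays against 9.68 and 9.70 on the control prednisolone arrays, and 8.42 and 8.02 on the BTG1 shRNA vehicle arrays against 7.68 and 8.17 on the control vehicle arrays. Both were called lower under prednisolone, DTX3L at -1.94 (SE 0.33, adjusted p = 0.00564) and PARP9 at -1.80 (SE 0.31, adjusted p = 0.00613). Under vehicle the differences were -0.69 (SE 0.33, adjusted p = 0.218) for DTX3L and 0.29 (SE 0.31, adjusted p = 0.513) for PARP9, and the groups overlapped for PARP9.

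The prednisolone comparison addresses whether the glucocorticoid altered these genes within each shRNA. On the control arrays 2 of 41 clusters were higher with prednisolone and 0 lower, against 0.928% higher and 0.587% lower among all clusters. These were ISG20 and PARP9. With so few members called, the share is only a description. The median log2 difference of the members was -0.05, against -0.16 for all clusters, and it became positive, at 0.07, when arrays were quantile normalized, which moved the median of all clusters to -0.05. ISG20 was higher with prednisolone on the control arrays, by 1.82 (SE 0.19, adjusted p = 0.00662), with 7.46 and 7.55 on the prednisolone arrays against 5.88 and 5.48 on the vehicle arrays. The call was lost with the second control prednisolone array left out (adjusted p = 0.0778) and in a fit of only the arrays compared (adjusted p = 0.0755). PARP9 was higher with prednisolone on the control arrays, by 1.76 (SE 0.31, adjusted p = 0.0458), with 9.68 and 9.70 on the prednisolone arrays against 7.68 and 8.17 on the vehicle arrays. Its call was lost in 8 of 16 other settings, which left out either control prednisolone array, the first control vehicle array or either BTG1 shRNA vehicle array, rescaled the arrays, or fitted only the arrays compared, with adjusted p-values of 0.0605 to 0.315. DTX3L, its divergent neighbour, was at 0.96 (SE 0.33, adjusted p = 0.26) and did not pass. The count of 2 was 0 with the second control prednisolone array left out, and 1 without the first control prednisolone, the first control vehicle or either BTG1 shRNA vehicle array.

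At an unadjusted p below 0.05 there were 18 of 41 members in this contrast, on both sides of 0, where 14.1% of all clusters were under it. The clusters of OAS1, OAS2, OAS3 and their relative OASL all had negative differences, and none passed. The differences were -0.89 (SE 0.31, adjusted p = 0.26) for OAS2 and -0.74 (SE 0.18, adjusted p = 0.112) for OAS3. OAS1 was at -0.66 (SE 0.18, adjusted p = 0.161) and OASL at -0.50 (SE 0.22, adjusted p = 0.374). All 4 stayed below 0 with either other scaling of the arrays. OASL, at an unadjusted p of 0.0592 by limma, is not among the 18. BST2 with PLVAP, at -0.87 (SE 0.20, adjusted p = 0.107), ISG15, at -0.83 (SE 0.31, adjusted p = 0.299), and USP18 with USP41P, at -0.73 (SE 0.26, adjusted p = 0.28), were also on the lower side without passing. So was IFIT1, at -0.57 (SE 0.18, adjusted p = 0.215). The cluster of BST2 alone was only at -0.29 (SE 0.20, adjusted p = 0.48). On the higher side, also without passing, were SAMD9 at 1.09 (SE 0.44, adjusted p = 0.333), IFI44 at 0.93 (SE 0.39, adjusted p = 0.342), MX1 at 0.73 (SE 0.22, adjusted p = 0.198) and GBP1 with GBP3 at 0.70 (SE 0.17, adjusted p = 0.114). So were SAMD9L at 0.65 (SE 0.20, adjusted p = 0.212) and HERC6 at 0.58 (SE 0.18, adjusted p = 0.215). Smaller still were IFIH1 at 0.51 (SE 0.20, adjusted p = 0.319) and IFIT2 at 0.44 (SE 0.18, adjusted p = 0.33). The cluster of TRIM22 alone, not one of the 41, was at 1.01 (SE 0.40, adjusted p = 0.322). With quantile normalization MX1 passed in this contrast, at 0.95 (adjusted p = 0.0344). Arrays did not overlap for 12 clusters above and 14 below, where 15.3% and 26.4% of all clusters were so placed.

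**Figure D4:**
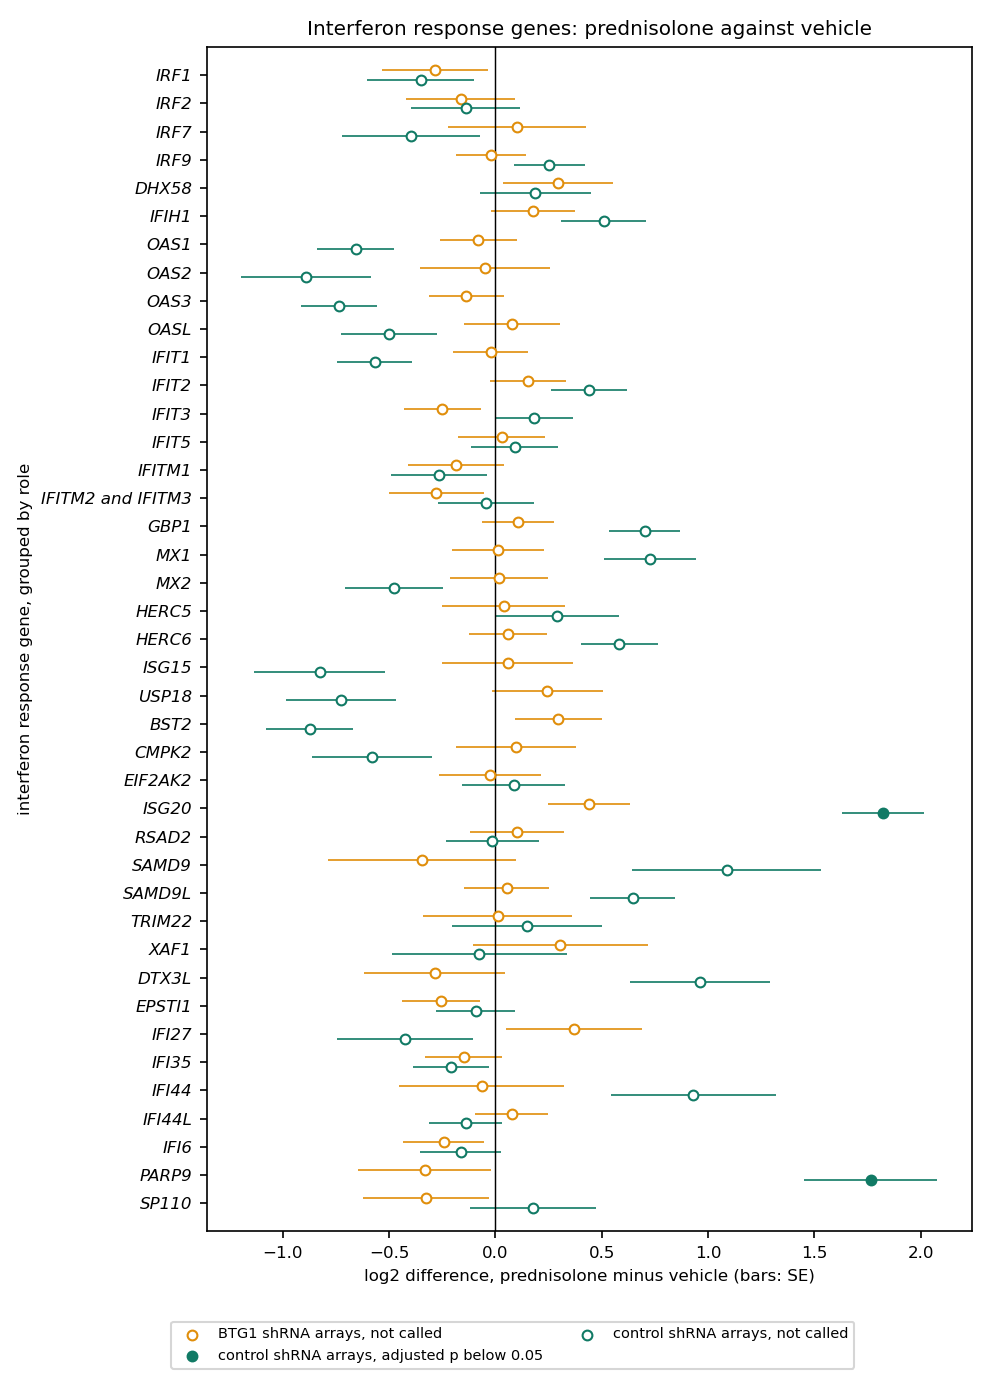
Log2 difference of each interferon response gene between prednisolone and vehicle, on the BTG1 shRNA arrays (orange) and the control shRNA arrays (green), with the standard error as bars; filled points had an adjusted p below 0.05. The orange points lie between -0.34 and 0.44, the green points between -0.89 and 1.82.

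On the BTG1 shRNA arrays 0 of 41 clusters were called for prednisolone by limma, where 0% of all clusters were called. An unadjusted p below 0.05 was found for 0 members and for 1.04% of all clusters. The differences ran from -0.34 to 0.44, with ISG20 again the highest at 0.44 (SE 0.19, adjusted p = 1). PARP9, called on the control arrays, was at -0.33 (SE 0.31, adjusted p = 1) here, and its neighbour DTX3L at -0.29 (SE 0.33, adjusted p = 1). Of the classic glucocorticoid targets, SGK1 was at 0.22 (SE 0.23, adjusted p = 1) on the BTG1 shRNA arrays and 4.64 (SE 0.23, adjusted p = 0.000567) on the control arrays, with a difference of effects of -4.42 (SE 0.33, adjusted p = 0.00862). TSC22D3 was at 0.99 (SE 0.17, adjusted p = 1) on the BTG1 shRNA arrays, where the prednisolone arrays (5.31 and 5.14) did not overlap the vehicle arrays (4.29 and 4.18), and at 2.67 (SE 0.17, adjusted p = 0.00118) on the control arrays. FKBP5 was at 0.34 (SE 0.35, adjusted p = 1) on the BTG1 shRNA arrays and 2.70 (SE 0.35, adjusted p = 0.0134) on the control arrays. The difference of effects passed for SGK1 and not for TSC22D3, at -1.68 (SE 0.24, adjusted p = 0.0705), or FKBP5, at -2.36 (SE 0.49, adjusted p = 0.193). Of the 5 genes listed as checks of the knockdown and the treatment, it passed for 1, SGK1.

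The difference between these prednisolone effects was tested directly, as the effect on the BTG1 shRNA arrays minus that on the control arrays. By limma 0 of 41 members were called, with 0.134% of all clusters called, and 7 had an unadjusted p below 0.05, as had 9.31% of all clusters. PARP9 had the most negative difference of effects at -2.10 (SE 0.44, adjusted p = 0.201), then SAMD9 at -1.43 (SE 0.63, adjusted p = 0.537), ISG20 at -1.38 (SE 0.27, adjusted p = 0.166) and DTX3L at -1.25 (SE 0.47, adjusted p = 0.512). BST2 with PLVAP had the most positive of the 41 clusters, at 1.17 (SE 0.29, adjusted p = 0.279). The cluster of BST2 alone was only at 0.41 (SE 0.28, adjusted p = 0.55). That of TRIM22 alone was at -1.11 (SE 0.56, adjusted p = 0.542) and that of EIF2AK2 alone at -1.41 (SE 0.86, adjusted p = 0.546). No member was therefore shown to respond differently to prednisolone between the shRNAs, although the effects of ISG20 and PARP9 passed on the control arrays alone.

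The other genes of the pathway were examined from a list of ligands, receptors, sensors and regulators. The 21 interferon genes lay on 16 clusters, all dim in all 4 groups, with a mean level of 2.75 to 2.95 on the BTG1 shRNA arrays against 2.81 to 3.14 on the control arrays. Of these 16 clusters 0 were called by limma in any contrast. The 9 genes of receptors and their kinases measured here lay on 8 clusters, and the lambda interferon receptor IFNLR1 was lower on the BTG1 shRNA arrays, at -1.92 (SE 0.23, adjusted p = 0.000904) under prednisolone and -1.38 (SE 0.23, adjusted p = 0.00551) under vehicle. The gamma interferon receptor IFNGR1 was called lower under prednisolone only, at -1.58 (SE 0.42, adjusted p = 0.0376), against 0.57 (SE 0.42, adjusted p = 0.369) under vehicle.

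Sensors and adaptors that lie upstream of interferon showed 8 lower and 3 higher of 23 under prednisolone, and 6 lower and 1 higher under vehicle. Among all clusters 7.51% were lower and 10.0% higher under prednisolone, and 6.21% lower and 8.46% higher under vehicle. Not all of the sensors and adaptors called are named here. IRF4, CGAS, TLR7 and IRF8 were dim on the BTG1 shRNA arrays, as were IFNLR1 and UBA7 above. The size of their differences is thus uncertain. IRF4, a factor of lymphoid development, was lower in both, at -3.88 (SE 0.22, adjusted p = 3.55e-05) under prednisolone and -4.51 (SE 0.22, adjusted p = 2.1e-05) under vehicle. CGAS, the cytosolic DNA sensor, was at -3.55 (SE 0.37, adjusted p = 0.000525) under prednisolone and -3.40 (SE 0.37, adjusted p = 0.000737) under vehicle. The endosomal RNA receptor TLR7 was at -4.17 (SE 0.20, adjusted p = 1.85e-05) under prednisolone and -3.14 (SE 0.20, adjusted p = 6.32e-05) under vehicle. IRF8, a factor of B and myeloid cells, was at -1.31 (SE 0.25, adjusted p = 0.00945) under prednisolone and -2.11 (SE 0.25, adjusted p = 0.00114) under vehicle. The adaptor TRAF3 was higher in both, by 2.31 (SE 0.23, adjusted p = 0.000451) under prednisolone and 1.77 (SE 0.23, adjusted p = 0.00186) under vehicle. Of the 11 feedback and ISG15 conjugation genes measured, 3 were lower under prednisolone and 1, UBA7, under vehicle. The shares among all clusters are those given above for the sensors. The feedback inhibitor SOCS1 was called lower under prednisolone, at -2.14 (SE 0.46, adjusted p = 0.0157), against -0.46 (SE 0.46, adjusted p = 0.488) under vehicle. On the control arrays the phosphatase PTPN6 was the 1 gene of all these lists called for prednisolone, at -0.96 (SE 0.18, adjusted p = 0.0491). B-lineage and T-lineage markers moved with each of these contrasts between the shRNAs, and their part in the results was not tested.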

How the data were processed

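Total RNA was labelled with biotin and hybridised to 8 Affymetrix exon arrays, summarised over core meta-probe sets built on hg18, per the labels. The tools were RMA and Partek, per the submitters' processing notes, which state no version. The deposited score values are log2 levels of transcript clusters that had lost the decimal point in all but 153 of 143048 cells. Those 153 lay between 2.47 and 12.25. A leading digit of 1 (2831 values) was taken to open a number with 2 digits before the point, and all other values were given 1 digit before the point. Correlations between arrays were 0.446 to 0.587 as deposited and 0.872 to 0.995 after this. The highest restored level was 13.4. No further normalization or filter was applied, and 0 value columns were left out. The number of arrays limits the precision.

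Symbols came from the platform annotation, in which 14432 clusters had 1 symbol, 2408 several and 1041 none. Of the 42 members with a cluster, 35 used a cluster of 1 symbol and 7 a cluster of several, and 5 had a second cluster. With limma 3.58.1 (R 4.3.3), lmFit and eBayes were run on every cluster over the 4 group means, which left 4 residual degrees of freedom beside a prior of 3.51. There were 5 contrasts and Benjamini-Hochberg adjustment over 17881 clusters, threshold 0.05. The deposited unit differed from the plain log2 table that the tests assumed, and the tests were kept on the restored values. SE is the moderated standard error of a log2 difference. The scripts were tested on simulated data.

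Values per array are given for each member called in any contrast and for IRF1, IRF7, IRF9, ISG15, MX1, IFIT1 and OAS1. The members and gene lists were chosen with earlier results of these data known. Alternatives were quantile normalization, centring of arrays, a trended robust variance, a fit of only the arrays compared, the replicate number as a block, a filter on dim clusters, the mean of a gene's clusters, clusters of 1 symbol, and leaving out each array. Replicate numbers were checked for pairing. Correlations of same-numbered deviations between groups were 0.593, 0.561, 0.425, 0.415, 0.263 and 0.007. They were not all over 0.1, so the numbers were not treated as pairs. That rule does not show that the arrays are unpaired. Promoter sequences and gene neighbours came from RefSeq (GRCh38.p14), whose positions were not set against the hg18 probes.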

Additional observations from a re-analysis of the deposited data

How the results depend on the processing

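The count of members called for prednisolone on the control arrays, 2, was 1 with arrays centred, 0 in a fit of only the arrays compared, and 0 to 3 on leaving out each array. For BTG1 shRNA against control the count of 22 under prednisolone was 14 of 26 clusters with the filter on dim clusters, which tests fewer members, and 13 to 26 on leaving out each array. The count of 15 under vehicle was 8 to 20 on leaving out each array. With the replicate number as a block, the counts were 4 for prednisolone on the control arrays (3 higher, 1 lower), 22 under vehicle and 27 under prednisolone. Whether the numbers pair the samples was not settled by the check of pairing. These counts are an alternative only and say nothing of effect size. The other 2 counts stayed at 0 in each setting run. The share of all clusters called in each setting is not given, here or above. A change in count is thus not shown to be particular to these genes. Of 635 values of called members under the alternatives, 570 kept their call, 65 lost it and 0 changed sign. Members that gained a call under another scaling were DHX58, IRF9, RSAD2 and MX1. Signal near background limits the 14 clusters dim in all groups. Under other scalings the member median for prednisolone on the control arrays was 0.07 or 0.08, against -0.05, while that of all clusters was -0.05 or -0.04, against -0.16; for the difference of effects, all clusters had 0.06 or 0.03, against 0.20. The cause of these shifts was not tested.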

Other observations

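On the control arrays, genes of the pathway outside the 43 lay on both sides of 0 with prednisolone without passing the test. On the higher side, IFNGR1 was at 2.02 (SE 0.42, adjusted p = 0.0742), SOCS1 at 1.78 (SE 0.46, adjusted p = 0.137), JAK2 at 0.95 (SE 0.36, adjusted p = 0.3) and RIGI at 0.87 (SE 0.22, adjusted p = 0.137). On the lower side, TRIM25 was at -0.95 (SE 0.20, adjusted p = 0.0763), IRF8 at -0.79 (SE 0.25, adjusted p = 0.221) and IRF3 at -0.60 (SE 0.18, adjusted p = 0.196). On the BTG1 shRNA arrays IFNGR1 was at -0.13 (SE 0.42, adjusted p = 1), SOCS1 at 0.09 (SE 0.46, adjusted p = 1), JAK2 at 0.02 (SE 0.36, adjusted p = 1), RIGI at 0.06 (SE 0.22, adjusted p = 1), TRIM25 at 0.07 (SE 0.20, adjusted p = 1), IRF8 at -0.00 (SE 0.25, adjusted p = 1) and IRF3 at -0.03 (SE 0.18, adjusted p = 1). The median of the receptor and kinase clusters was -0.06 on the BTG1 shRNA arrays and 0.56 on the control arrays, and that of the sensors and adaptors was 0.02 on the BTG1 shRNA arrays and -0.21 on the control arrays. The median of all clusters was 0.03 on the BTG1 shRNA arrays and -0.16 on the control arrays. The 7 genes named were picked after their values were seen.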
